A study of Mus musculus with 10 samples.

Results

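The mouse genes Mir322, Mir503, Mir351 and Mir542 encode microRNA hairpins that lie within a few kilobases of each other on chromosome X, directly downstream of the noncoding gene C430049B03Rik. These 5 genes were chosen by name, and their values in Drosha knockout cells had led to the choice, so those values are given as a description with no test. All 5 were found among the 55189 named genes of the table that holds the Drosha knockout, where C430049B03Rik carried an Ensembl identifier and no symbol. The table that holds the Dicer1 knockout gives symbols only, and 4 of the 5 were found among its 32931 named genes, so C430049B03Rik was not analysed there.

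A microRNA gene is transcribed as a long primary RNA, from which the nuclear enzyme Drosha, with its partner Dgcr8, cuts out a hairpin. Dicer1 then cuts the hairpin in the cytoplasm to the mature microRNA, which pairs through its seed (bases 2 to 8) with sites in messenger RNAs and lowers their stability and translation. The cluster described here is the mouse counterpart of the human MIR424 and MIR503 cluster. It is known for microRNAs that restrain cyclins and other cell cycle genes and that rise when myoblasts leave the cell cycle. In sequencing of bead-captured mRNA, the RNA counted on a microRNA gene should mostly be unprocessed transcript covering the hairpin, since mature microRNAs are too short and carry no poly(A) tail.

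OP9 cells are stromal cells of mouse bone marrow, labelled here as mesenchymal stem cells, that can form adipocytes. All libraries came from cells that had received rosiglitazone, which activates the adipocyte transcription factor PPARγ, at 1 µM from confluence until day 10. Drosha knockout cells (3 libraries) were set against empty vector cells of batch 2 (3 libraries), and Dicer1 knockout cells (2 libraries) against empty vector cells of batch 1 (2 libraries). The labels give no number of clones per knockout, do not state if replicates came from different cultures, and name more than 1 RNA extraction kit and several sequencers without tying them to libraries. The p-values therefore measure only the spread between these libraries, and knockout and batch cannot be told apart across the tables. Values are TPM, a length-corrected share of all transcripts scaled to a fixed total, which keep no sequencing depth, so the depth is unknown and no counting interval is given.

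The targeted gene was lower in the Drosha knockout libraries. Drosha stood at 14.8, 13.7 and 15.6 TPM in Drosha knockout cells, against 38.9, 39.6 and 38.6 TPM in batch 2 empty vector cells (log2 change -1.35 ± 0.05 SE, limma adjusted p = 9.72e-06). In the other table, Dicer1 RNA stood at 19.3 and 14.9 TPM in Dicer1 knockout cells, against 23.8 and 17.3 TPM in batch 1 empty vector cells. Those Dicer1 values overlapped and did not pass the test (log2 change -0.25 ± 0.21 SE, limma adjusted p = 0.407), so its RNA level gives no check of that label. Of 7 stromal markers, 1 rose and 3 fell in Drosha knockout cells, where 35.3% of all genes rose and 7.42% fell. They summed there to 8357 to 8513 TPM, against 8319 to 8876 TPM in their empty vector cells. Cxcl12 was the largest part of those sums, with means of 5315 TPM in Drosha knockout cells and 5026 TPM in their empty vector cells. In Dicer1 knockout cells 1 of the 7 rose and 4 fell, where 21.5% of all genes rose and 9.60% fell. Their sums there were 793 to 822 TPM, against 1254 to 1455 TPM in their empty vector cells. Endothelial markers summed to at most 0.270 TPM in any batch 2 library and at most 2.85 TPM in any batch 1 library. Macrophage markers summed to 20.2 to 23.3 TPM in Drosha knockout cells, against 20.7 to 22.5 TPM in their empty vector cells. Those sums were 15.7 to 17.9 TPM in Dicer1 knockout cells, against 12.5 to 20.3 TPM in their empty vector cells. Of all genes tested in the Drosha comparison 42.8% were called, and of those in the Dicer1 comparison 31.1%. The Dicer1 count of 3802 called genes became 432 without Dicer1 knockout replicate 1 and 679 without replicate 2, in fits where the remaining library is assumed to vary like the controls.

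Each hairpin yields a mature strand that is annotated to regulate messenger RNAs, and their sequences show which of them can share targets. The mature sequences below come from RefSeq (GRCm38.p6), 5′ to 3′, with the seed in capitals. The last 3 are from other genes and are shown because they carry a seed found in the cluster.
mmu-miR-322-5p: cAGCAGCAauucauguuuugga
mmu-miR-503-5p: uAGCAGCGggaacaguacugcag
mmu-miR-351-5p: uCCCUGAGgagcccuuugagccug
mmu-miR-542-3p: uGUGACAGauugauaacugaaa
mmu-miR-15b-5p: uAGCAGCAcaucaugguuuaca
mmu-miR-16-5p: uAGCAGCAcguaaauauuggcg
mmu-miR-125b-5p: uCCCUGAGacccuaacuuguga

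The miR-322-5p seed was identical to that of miR-15b-5p and miR-16-5p and was carried by 9 other mature mouse microRNAs in the RefSeq set. The miR-503-5p seed matched it at 6 of 7 bases, differing at the last, and 0 other mature microRNAs carried it. The miR-351-5p seed was that of the miR-125 microRNAs and was shared with 4 others, while 0 others had the miR-542-3p seed. Thus the cluster carries seeds of 3 kinds: the miR-15 and miR-16 kind with the close relative miR-503, the miR-125 kind, and that of miR-542.

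The annotated hairpin sequences below, again from RefSeq, include bases outside the mature strands, and the ends that Drosha cuts are not marked. Capitals mark the mature strands, the first being the 5p arm.
Mir322 hairpin: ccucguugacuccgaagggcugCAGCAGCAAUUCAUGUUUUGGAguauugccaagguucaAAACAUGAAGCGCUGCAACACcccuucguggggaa
Mir503 hairpin: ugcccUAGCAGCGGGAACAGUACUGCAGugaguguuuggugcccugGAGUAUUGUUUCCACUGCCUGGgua
Mir542 hairpin: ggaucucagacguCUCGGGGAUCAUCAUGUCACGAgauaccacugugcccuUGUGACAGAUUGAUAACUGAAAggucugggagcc

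In the GENCODE annotation of GRCm38, to which the Ensembl identifiers were matched since the tables name no build, all 5 genes lie on the minus strand. C430049B03Rik (chrX:53055046-53057190) is annotated as a processed transcript with 4 transcripts of 698 to 868 bases. Mir322 (chrX:53054255-53054349, 95 bases) begins 2841 bases downstream of its start, Mir503 (chrX:53053984-53054054, 71 bases) 3136 bases and Mir351 (chrX:53053255-53053353, 99 bases) 3837 bases downstream. Mir542 (chrX:53049403-53049487, 85 bases) follows at 7703 bases. GENCODE ends C430049B03Rik before the first hairpin, so the hairpins are intergenic there, while RefSeq's version of the gene spans Mir322, Mir503 and Mir351. Reads of a transcript running through the region could thus be assigned to either kind of row, and the annotation that the authors counted on is not given in the sources used here.

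All 5 genes stood far higher in every Drosha knockout library than in any empty vector library. Mir322 measured 1040, 1207 and 1497 TPM in Drosha knockout cells, against 18.3, 15.5 and 14.0 TPM in empty vector cells. The groups were far apart: the lowest Drosha knockout library was 56.8 times the highest empty vector library. The means were 1248 ± 231 and 15.9 ± 2.20 TPM (SD, n = 3 each), a ratio of 78.3, and the log2 change on TPM + 1 was 6.20 ± 0.14 (SE).

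Mir503, whose product shares all but the last seed base with miR-322, was at a similar level. It measured 1142, 1258 and 1606 TPM in Drosha knockout cells, against 34.4, 26.3 and 12.9 TPM in empty vector cells. The means were 1335 ± 241 and 24.5 ± 10.9 TPM (SD, n = 3 each), a ratio of 54.4 and a log2 change of 5.80 ± 0.32 (SE). The empty vector libraries spread widely, replicate 3 being lowest, but the lowest Drosha knockout library was still 33.2 times the highest of them.

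Mir351, the source of the miR-125-seed microRNA, measured 803.9, 639.0 and 944.0 TPM in Drosha knockout cells, against 48.7, 22.9 and 17.3 TPM in empty vector cells. Its means were 796 ± 153 and 29.6 ± 16.8 TPM (SD, n = 3 each), a ratio of 26.8 and a log2 change of 4.82 ± 0.34 (SE). Empty vector replicate 1 stood above the other empty vector libraries for this gene, and the groups were separated by a factor of 13.1 at their nearest libraries.

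Mir542, the most distant of the 4 hairpins, was the lowest. It measured 38.3, 34.4 and 56.5 TPM in Drosha knockout cells, against 2.27, 0 and 3.19 TPM in empty vector cells, with a log2 change of 4.17 ± 0.50 (SE). Empty vector replicate 2 was listed at 0, so no ratio of means is given. The lowest Drosha knockout library was 10.8 times the highest empty vector library.

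C430049B03Rik, the spliced noncoding gene at the head of the cluster, was the only member with a high level in control cells. It measured 1129, 1091 and 1000 TPM in Drosha knockout cells, against 169.8, 183.3 and 176.0 TPM in empty vector cells. The means were 1074 ± 66.4 and 176.4 ± 6.75 TPM (SD, n = 3 each), a ratio of 6.09 and a log2 change of 2.60 ± 0.05 (SE). Its replicates were the tightest of the 5 genes in both groups, relative to their means.

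Among the 12739 genes tested in this comparison, the log2 changes of Mir322, Mir503, Mir351, Mir542 and C430049B03Rik ranked 2, 4, 6, 8 and 24. Changes above 4 were found in 0.0863% of the genes and changes above 2 in 0.322%. Every Drosha knockout library was above every empty vector library for all 5 members, as it was for 44.1% of all genes tested. All 5 passed the filter on low TPM, Mir542 with 5 of the 6 libraries at 1 TPM or more and the others with 6 of 6.

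**Figure D1:**
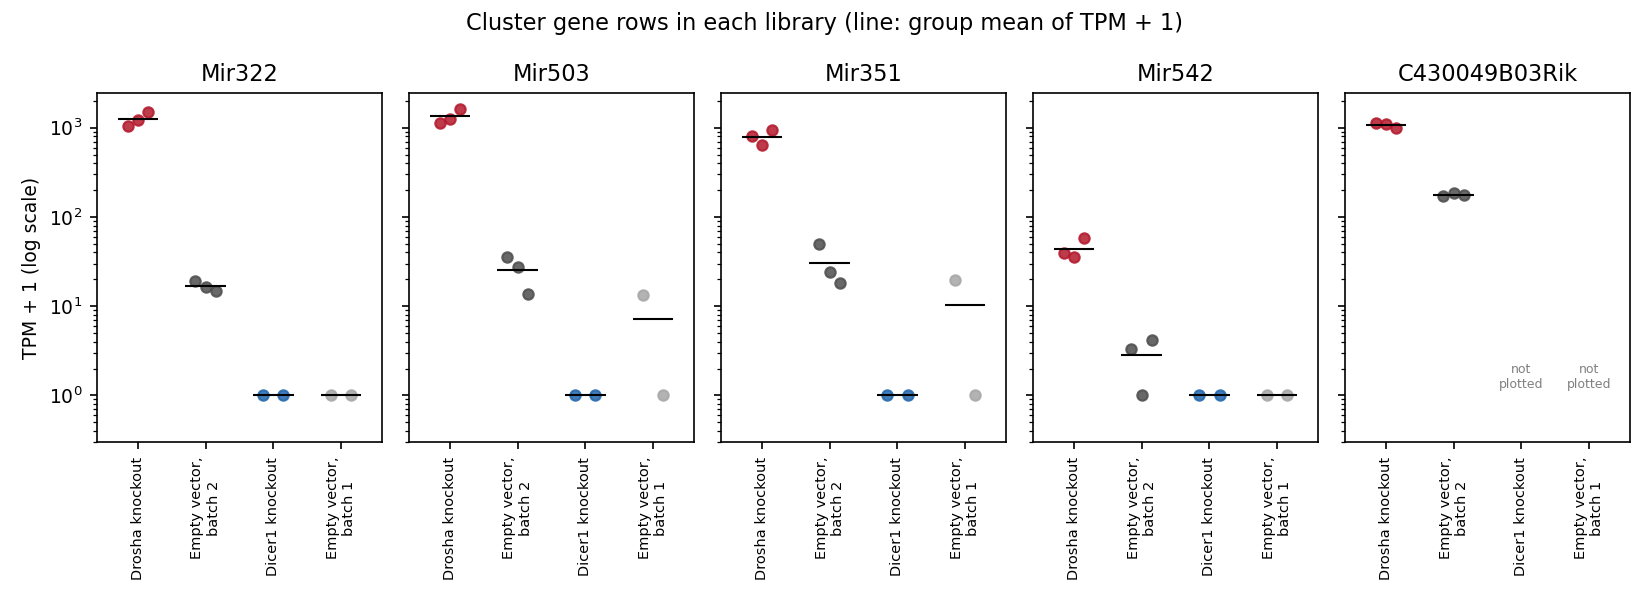
TPM + 1 on a log axis for the 5 cluster genes in each library, by group, with a line at the group mean of TPM + 1. The Drosha knockout libraries lie above the batch 2 empty vector libraries for every gene (for Mir322 at 1040 to 1497 TPM, against 14.0 to 18.3 TPM), while in batch 1 the 4 hairpin genes are at 0 TPM except Mir503 and Mir351 in empty vector replicate 1.

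In Drosha knockout cells the order of mean TPM was Mir503, Mir322, C430049B03Rik, Mir351 and Mir542. The ranges of Mir503 and Mir322 overlapped, as did those of Mir322 and C430049B03Rik, so neither pair was separated beyond its spread. Every Mir503 value lay above every C430049B03Rik value, Mir351 lay below every C430049B03Rik value and Mir542 lay far below Mir351. In empty vector cells the order was C430049B03Rik, Mir351, Mir503, Mir322 and Mir542. There C430049B03Rik and Mir542 stood clear of the rest, and Mir351, Mir503 and Mir322 overlapped. Thus the head gene exceeded the hairpins in control cells, and in knockout cells its range overlapped that of Mir322 and lay below that of Mir503.

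The proportions between the rows showed this directly. Mir322 over C430049B03Rik was 0.921, 1.11 and 1.497 in Drosha knockout cells, against 0.108, 0.0847 and 0.0793 in empty vector cells. Mir503 over Mir322 was 1.10, 1.04 and 1.07 in Drosha knockout cells, against 1.88, 1.69 and 0.922 in empty vector cells. Mir351 over Mir322 was 0.773, 0.529 and 0.631 in Drosha knockout cells, against 2.66, 1.47 and 1.24 in empty vector cells. The ratio of hairpin to head gene was thus higher in all 3 knockout libraries, and that of Mir351 to Mir322 was lower in all 3. Within the knockout group, replicate 3 had the highest level of all 4 hairpin rows and the lowest of C430049B03Rik.

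TPM corrects for length, so a short hairpin reaches a high TPM from few fragments. Multiplied by median annotated transcript length, Mir322 came to 14.3% of C430049B03Rik in Drosha knockout cells, Mir503 to 11.4%, Mir351 to 9.51% and Mir542 to 0.442%. On that scale the head gene had the largest value of the cluster. The TPM were computed with effective lengths, which are not given and can differ from annotated lengths for rows this short. These percentages are therefore not amounts of RNA, and TPM of hairpin rows against the head gene has the same limit.

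The cluster dominated the microRNA gene rows of the Drosha knockout libraries. Of 1176 such rows, Mir503, Mir322, Mir351 and Mir542 ranked 1, 2, 3 and 6 by mean TPM in Drosha knockout cells, against ranks 3, 4, 2 and 19 in empty vector cells. The 4 hairpin genes made up 85.6% to 88.4% of the TPM of all microRNA rows other than Mir6236 in Drosha knockout cells, against 36.8% to 44.0% in empty vector cells. Mir6236 was set aside because it varied within a group: it stood at 657, 628 and 953 TPM in Drosha knockout cells, against 869, 568 and 10521 TPM in empty vector cells, where replicate 3 stood apart. Of all TPM in a library the 4 genes took 0.302% to 0.410% in Drosha knockout cells, against 0.00473% to 0.0104% in empty vector cells.

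Most other microRNA rows were listed at 0. Of 1172 other than Mir322, Mir503, Mir351 and Mir542, 1041 were at 0 in all 6 libraries and 38 passed the filter. The 38 include the Mir450 rows of the cluster, described below. Of those 38, 19 rose and 1 fell in the limma test, with a median log2 change of 1.09, where the median of all tested genes was 0.13 and 35.3% of all genes rose. Since a row silent in control cells passes only if it is high in knockout cells, no weight rests on that count. Among them, Mir29a stood at 146, 162 and 186 TPM in Drosha knockout cells and at 0 in each empty vector library. Its mean difference of 165 TPM was below those of Mir322, Mir503 and Mir351 and above that of Mir542, 41.2 TPM, and its log2 change on TPM + 1 ranked above that of every member.

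The 4 other rows annotated along the strand of the cluster were not among the genes chosen, and all lay below Mir322, Mir503 and Mir351 in level. Gm28730, a long noncoding RNA annotated between Mir351 and Mir542, measured 43.0, 29.1 and 35.2 TPM in Drosha knockout cells, against 3.08, 4.77 and 2.20 TPM in empty vector cells. It rose by 3.10 ± 0.22 on the log2 scale (limma adjusted p = 6.98e-05). Mir450-2, which lies 8823 bases from the head gene's start, measured 5.29, 5.58 and 4.29 TPM in Drosha knockout cells and was listed at 0 in the 3 empty vector libraries. Mir450-1, 8946 bases from that start, measured 1.28, 1.32 and 3.91 TPM in Drosha knockout cells and 0 in each empty vector library. Both rows passed the filter only through the Drosha knockout libraries, so no test of them is given. They encode the same mature miR-450a-5p, and reads could be split between near-identical copies, so their separate values are uncertain.

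Mir450b, the last hairpin at 9112 bases, did not pass. It measured 6.54, 0 and 5.24 TPM in Drosha knockout cells, against 2.56, 1.58 and 0 TPM in empty vector cells, and the groups overlapped (log2 change 0.79 ± 0.81 SE, limma adjusted p = 0.469). Without Drosha knockout replicate 2, the library at 0, its change was 1.71 with a limma adjusted p under the threshold. Multiplied by annotated length, with the limit given above, the 3 Mir450 rows each came to at most 0.0421% of C430049B03Rik in Drosha knockout cells. Gm28730 came to 2.87%.

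**Figure D2:**
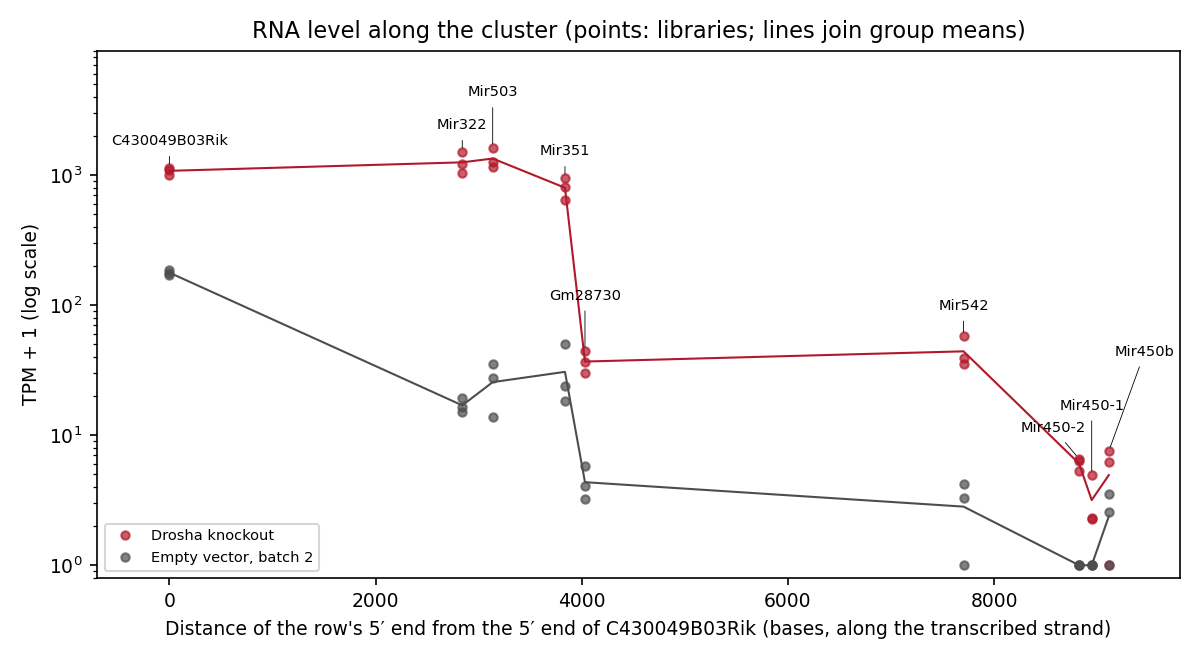
TPM + 1 on a log axis against the distance of each row's 5′ end from that of C430049B03Rik, in bases along the transcribed strand, for Drosha knockout and batch 2 empty vector libraries. In knockout cells the first 4 rows lie near 1000 TPM (means 796 to 1335) and the level is lower from Gm28730 on, while in empty vector cells only C430049B03Rik, at 176.4 TPM, is above 50 TPM.

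In the Dicer1 comparison the hairpin genes were at or near 0. Mir322 and Mir542 were listed at 0 TPM in both Dicer1 knockout libraries and in both batch 1 empty vector libraries. Mir503 was at 0 and 0 TPM in Dicer1 knockout cells, against 12.5 and 0 TPM in empty vector cells. Mir351 was at 0 and 0 TPM in Dicer1 knockout cells, against 18.9 and 0 TPM in empty vector cells. All signal of the 4 genes thus came from 1 library, empty vector replicate 1, and 0 of the 4 passed the filter, so no test was made. Fitted without the filter, Mir503 and Mir351 had log2 changes of -1.88 and -2.16, both at a limma adjusted p of 0.4705. The 3 Mir450 rows were at 0 in all 4 libraries.

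None of 8 housekeeping genes looked up was at 0 in any of those libraries, the lowest value being 34.95 TPM. With TPM alone, a hairpin listed at 0 may still be present below what the unknown depth could register. Control cells of the batches also differed: the batch 2 empty vector libraries had Mir322 at 14.0 to 18.3 TPM, and the batch 1 ones had it at 0. The difference between the knockouts could not be fitted for the 4 genes, because none was tested in the Dicer1 table.

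The genes flanking the cluster changed far less in the Drosha comparison than the members, which were chosen on their values there. Of the 5 nearest protein-coding genes on either side, 6 passed the filter in the Drosha comparison, and 4 rose and 0 fell, where 35.3% of all genes rose and 7.42% fell. Hprt, the purine salvage enzyme gene just downstream, stood at 114, 106 and 98.2 TPM in Drosha knockout cells, against 74.7, 70.0 and 72.2 TPM in empty vector cells (log2 change 0.55 ± 0.06 SE, limma adjusted p = 3.76e-04). Plac1, a placental gene just upstream, stood at 11.1, 11.8 and 13.4 TPM in Drosha knockout cells, against 8.09, 6.08 and 7.43 TPM in empty vector cells (log2 change 0.68 ± 0.11 SE, limma adjusted p = 0.00243). Both rose, with log2 changes below that of every member.

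Gpc4, a glypican that binds growth factors at the cell surface, also rose, with a log2 change of 0.57 ± 0.07 (SE, limma adjusted p = 8.71e-04). Fam122b rose by 0.22 ± 0.05 (limma adjusted p = 0.0120), and that call was lost with median-ratio scaling (0.08) and quantile normalization (0.05). The transcription regulator Phf6, at 0.03 ± 0.07, and Mospd1, at 0.14 ± 0.05, did not pass (limma adjusted p = 0.740 and 0.0522). Ccdc160, Gpc3, Fam122c and Etd were listed at 0 in all 6 libraries.

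In the Dicer1 comparison, 5 of the 10 neighbours passed the filter and 1 rose and 1 fell, where 21.5% of all genes rose and 9.60% fell. Mospd1, a membrane protein gene linked to mesenchymal differentiation in mouse cells, stood at 33.2 and 32.3 TPM in Dicer1 knockout cells, against 14.1 and 15.1 TPM in empty vector cells (log2 change 1.12 ± 0.12 SE, limma adjusted p = 0.00604). That call was lost without Dicer1 knockout replicate 1, at a change of 1.10. Gpc4 stood at 6.64 and 7.78 TPM in Dicer1 knockout cells, against 13.9 and 11.3 TPM in empty vector cells, a fall by 0.72 ± 0.19 (limma adjusted p = 0.0376). The Gpc4 call was lost without Dicer1 knockout replicate 1 (-0.62), without replicate 2 (-0.82), without empty vector replicate 1 (-0.59), with no filter and with a replicate block. Plac1 was at 0 and 0 TPM in Dicer1 knockout cells, against 0.908 and 0.124 TPM in empty vector cells, and was not tested.

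**Figure D3:**
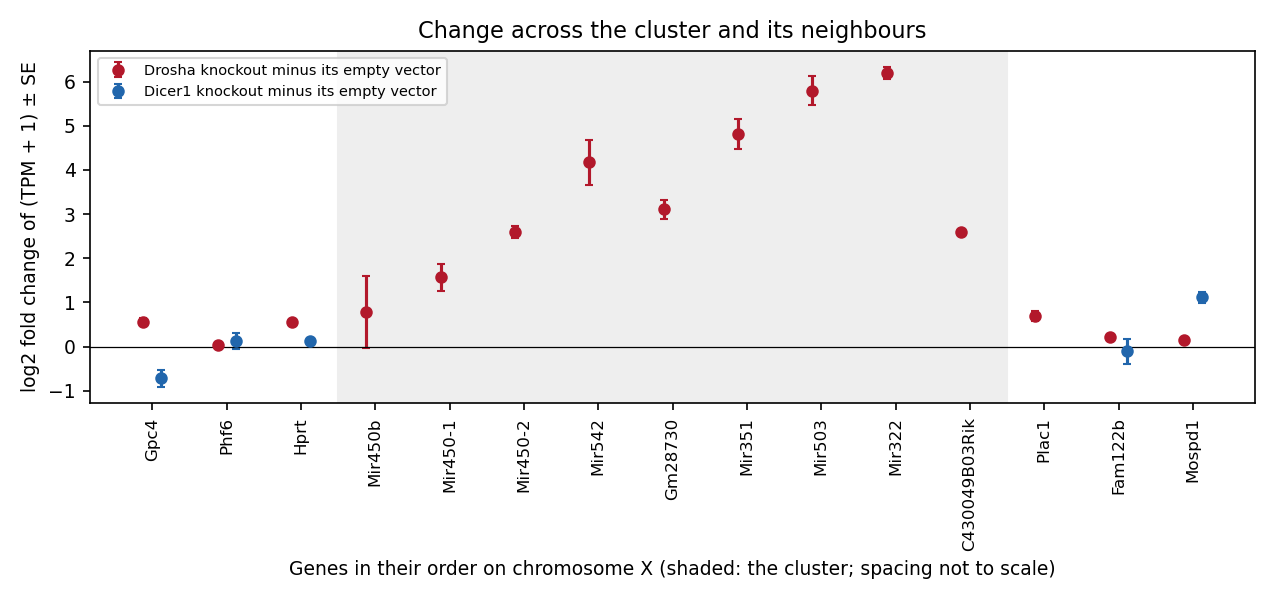
Log2 fold change of TPM + 1 with its SE for the rows of the cluster (shaded) and the tested protein-coding genes on either side, in their order on chromosome X, for each knockout minus its own empty vector. In the Drosha comparison the 5 members lie between 2.60 and 6.20 and the flanking genes between 0.03 and 0.68; no cluster row was tested in the Dicer1 comparison.

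Other noncoding transcripts that host microRNAs gave a measure for C430049B03Rik. Of 9 listed, 7 passed the filter in the Drosha comparison, and 6 rose and 0 fell, where 35.3% of all genes rose and 7.42% fell. Mir17hg, 1 of the 6, passed the filter only through the Drosha knockout libraries. Mir22hg, host of miR-22, stood at 121, 115 and 114 TPM in Drosha knockout cells, against 19.9, 21.8 and 20.5 TPM in empty vector cells (log2 change 2.44 ± 0.05 SE, limma adjusted p = 4.81e-07). Dleu2, host of miR-15a and miR-16-1, which carry the miR-322 seed, stood at 58.4, 75.9 and 65.2 TPM in Drosha knockout cells, against 14.7, 14.9 and 14.5 TPM in empty vector cells (2.10 ± 0.09 SE, limma adjusted p = 1.17e-05). On the log2(TPM + 1) scale the change of C430049B03Rik, 2.60, was above that of each of the 7. Its TPM was also above theirs in both groups. That order depends on the scale, since Mir17hg rose from a mean of 0.202 TPM to 1.80 TPM. Its ratio of means was 8.92, against 6.09 for C430049B03Rik. In the Dicer1 comparison 5 host transcripts were tested and limma called 0, where 31.1% of all genes were called, with 2 at an unadjusted p under 0.05.

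Of 5 host transcripts in the fit of both knockouts, 3 had a higher change in Drosha than in Dicer1 knockout cells and 0 a lower one. Of all genes, 17.4% were higher and 18.1% lower. The log2 differences were 2.76 ± 0.22 for Dleu2, 2.14 ± 0.34 for Mir100hg and 2.09 ± 0.10 for Mir22hg (SE). Their limma adjusted p were 2.58e-05, 0.00104 and 2.77e-06. Knockout and batch cannot be told apart in these differences. In Dicer1 knockout cells Dleu2 stood at 6.95 and 5.98 TPM, against 13.3 and 8.71 TPM in empty vector cells, which did not pass (limma adjusted p = 0.0900).

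Genes whose levels over the 10 libraries were most like those of Mir322, each value taken relative to the empty vector mean of its batch, included Mir29b-1, Mir450-2, Ripply1 and Tmem65, with Pearson r of 0.995, 0.995, 0.994 and 0.994 among 11694 genes compared. The other hairpin members had an r of 0.933 (Mir503), 0.888 (Mir351) and 0.966 (Mir542). These correlations are a description over 10 libraries that share 2 batches and rest mainly on the step between the Drosha knockout and its controls.

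Messenger RNAs reported as targets of the cluster's seed families were read from lists drawn up with earlier results of these data known. Of 25 listed targets of the miR-15, miR-16, miR-322 and miR-503 family, all 25 were tested in the Drosha comparison, and 16 rose and 0 fell, where 35.3% of all genes rose and 7.42% fell. Their median log2 change was 0.46 where that of all genes was 0.13. With median-ratio scaling or quantile normalization, which move the median of all genes to about 0, the counts were 14 risen and 2 fallen. Of all genes, 2299 then rose and 2091 fell with median-ratio scaling, and 2142 and 2211 with quantile normalization. In the main fit 4502 rose and 945 fell. These 25 genes are targets of the whole family, not of the cluster alone.

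The members of that list with the largest changes were cell cycle genes, and several carry the 8-base match to the miR-322 seed in their 3′ UTR, TGCTGCTA. Wee1, the kinase that holds back mitotic entry, stood at 8.11, 8.09 and 8.48 TPM in Drosha knockout cells, against 2.63, 2.69 and 2.20 TPM in empty vector cells (log2 change 1.40 ± 0.09 SE, limma adjusted p = 4.75e-05). Anln, the cytokinesis scaffold anillin, averaged 12.9 ± 0.690 TPM in Drosha knockout cells and 4.45 ± 0.114 TPM in empty vector cells (SD, n = 3 each), a log2 change of 1.35 ± 0.07 (SE, limma adjusted p = 2.10e-05). Ccne1, the G1/S cyclin E1, averaged 9.09 ± 0.223 TPM in Drosha knockout cells and 3.25 ± 0.137 TPM in empty vector cells (SD, n = 3 each), a change of 1.25 ± 0.07 (SE, limma adjusted p = 3.33e-05). Ccnd2, the G1 cyclin D2, stood at 316.0, 321.9 and 362.1 TPM in Drosha knockout cells, against 170.5, 170.4 and 170.3 TPM in empty vector cells (0.96 ± 0.05 SE, limma adjusted p = 2.46e-05). All 4 rose, with no overlap between groups. They were picked as the called genes of the list with the largest changes, so no weight rests on that. Every Drosha knockout library was above every empty vector library for 44.1% of all genes tested.

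The sites below, from the longest annotated 3′ UTR, are shown because they belong to named genes of the lists, with the 8-base match in capitals, 5′ to 3′ as DNA of the transcribed sequence.
Wee1: ttgtgaattTGCTGCTAtttta
Ccne1: ttttgtaagTGCTGCTAtgtct
Ccnd2: ttcacggtgTGCTGCTAtttta
Map2k1: agcatgcttTGCTGCTActgaa
Ccnd2, miR-503 match: attatttttCGCTGCTAagaag
Vdr: agtccattcCTCAGGGAcaggt
Bmf: ccgcatgggCTCAGGGAttctt

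The first 4 match the seed of miR-322, miR-15b and miR-16 alike, so a site does not name its microRNA. Of the 25 listed genes, 15 held that match and 2 held the miR-503 match (CGCTGCTA), and Anln and Smurf2 held neither. The last 2 sites match the seed of miR-351 and miR-125 (CTCAGGGA), which 14 of the 20 genes listed for that family held and Trp53inp1 and Sirt7 did not. Of 5 genes listed for miR-542, 2 held its match (CTGTCACA), and Birc5 and Ptgs2 did not.

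The same list in Dicer1 knockout cells gave 13 risen and 2 fallen of 25, with a median log2 change of 0.69 where that of all genes was 0.15, 21.5% of all genes rose and 9.60% fell. The 13 became 2 without Dicer1 knockout replicate 1 and 3 without replicate 2. Smurf2, a ubiquitin ligase of TGF-β signalling, averaged 121 ± 0.566 TPM in Dicer1 knockout cells and 52.4 ± 4.93 TPM in empty vector cells (SD, n = 2 each), a log2 change of 1.19 ± 0.10 by limma (adjusted p = 0.00438). Map2k1, the MAP kinase kinase MEK1, stood at 219 and 193 TPM in Dicer1 knockout cells, against 87.6 and 110 TPM in empty vector cells (1.06 ± 0.14 SE, limma adjusted p = 0.00801), a call lost without Dicer1 knockout replicate 1 (0.97).

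The 2 that fell were cell cycle genes. Anln stood at 10.0 and 10.1 TPM in Dicer1 knockout cells, against 48.2 and 25.5 TPM in empty vector cells (-1.71 ± 0.30 SE, limma adjusted p = 0.0141). Ccne1 stood at 8.79 and 10.6 TPM in Dicer1 knockout cells, against 20.5 and 19.3 TPM in empty vector cells (-0.97 ± 0.16 SE, limma adjusted p = 0.0118). Both calls were lost without either Dicer1 knockout library: Anln was then at -1.71 without replicate 1 and -1.72 without replicate 2, and Ccne1 at -0.85 and -1.09.

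Among other cell cycle genes of the list, Cdk6 (0.92), Ccnd3 (0.77), Cdc25a (0.70) and E2f3 (0.69) rose in Dicer1 knockout cells. Limma did not call Ccnd2 (0.37), Ccnd1 (0.14), Wee1 (-0.32) or Chek1 (-0.63) there. Values are log2 changes, and 21.5% of all genes rose in that comparison.

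Markers of proliferating cells were measured beside these targets. All 6 rose in Drosha knockout cells, where 35.3% of all genes rose. They summed there to 86.9 to 100.0 TPM, against 32.4 to 36.3 TPM in empty vector cells. All 6 fell in Dicer1 knockout cells, where 9.60% of all genes fell. They summed there to 53.7 to 60.9 TPM, against 170 to 326 TPM in empty vector cells. Of 9 adipocyte markers, 7 fell and 1 rose in Drosha knockout cells, where 7.42% of all genes fell and 35.3% rose. Their summed levels were 1906 to 1959 TPM, against 1951 to 1959 TPM in empty vector cells. Fabp4, the marker that rose, was the largest part of both sums, with means of 1152 and 896 TPM. The sums therefore hide the falls, such as that of Adipoq from a mean of 235 TPM to 110 TPM. In Dicer1 knockout cells 7 of the 8 adipocyte markers tested fell, where 9.60% of all genes fell. Of the 7, 3 (Adipoq, Plin1 and Cfd) passed the filter only through the empty vector libraries. The sum of the 9 was 354 to 386 TPM in Dicer1 knockout cells, against 1016 to 1177 TPM in empty vector cells. In bulk RNA, fewer cells of a type and less RNA per cell cannot be told apart, and the part of proliferation or adipocyte content in the changes of the targets or of the cluster was not tested.

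In the fit of both knockouts, 5 of the 25 targets had a higher change in Drosha than in Dicer1 knockout cells and 9 a lower one, where 35.5% of all genes were called, 17.4% higher and 18.1% lower. Anln (3.06 ± 0.28), Ccne1 (2.22 ± 0.14) and Wee1 (1.72 ± 0.18) were among the higher, as log2 differences with SE, at limma adjusted p of 5.56e-05, 7.05e-06 and 1.22e-04. Smurf2 (-0.89 ± 0.11) and Map2k1 (-0.57 ± 0.13) were among the lower, at 2.37e-04 and 0.00637. These 5 genes were named for large changes in 1 or both knockouts, which enter the difference, so their p-values are not independent of that choice. Knockout and batch cannot be told apart here. Over the 25 targets, the changes did not have the same size in both comparisons.

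Of 20 listed targets of the miR-351 and miR-125 family, 16 were tested in the Drosha comparison, and 10 rose and 0 fell, where 35.3% of all genes rose and 7.42% fell. Their median log2 change was 0.29 where that of all genes was 0.13. The 10 became 7 with median-ratio scaling and 6 with quantile normalization, where 1 fell in either. Of all genes, the 4502 that rose became 2299 and 2142 under those settings, and the 945 that fell became 2091 and 2211. Trp53inp1, a p53-induced stress gene, averaged 45.5 ± 2.83 TPM in Drosha knockout cells and 26.4 ± 0.634 TPM in empty vector cells (SD, n = 3 each), a log2 change of 0.76 ± 0.05 by limma (adjusted p = 6.10e-05). Vdr, the vitamin D receptor gene, stood at 34.4, 33.1 and 36.7 TPM in Drosha knockout cells, against 20.8, 23.4 and 24.3 TPM in empty vector cells (0.59 ± 0.07 SE, limma adjusted p = 5.58e-04). Sirt7, a nuclear sirtuin gene, and Bmf, a pro-apoptotic BH3-only gene, rose by 0.45 ± 0.08 and 0.42 ± 0.06 (limma adjusted p = 0.00279 and 0.00102).

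In Dicer1 knockout cells 15 of these targets were tested, and 7 rose and 1 fell, where 21.5% of all genes rose and 9.60% fell. Their median was 0.59 where that of all genes was 0.15. The 7 became 2 without Dicer1 knockout replicate 1 and 3 without replicate 2. Trp53inp1 was again the largest rise, at 55.6 and 53.2 TPM in Dicer1 knockout cells, against 18.4 and 19.3 TPM in empty vector cells (1.48 ± 0.11 SE, limma adjusted p = 0.00342). Tnfaip3, an inhibitor of NF-κB signalling, stood at 87.0 and 87.7 TPM in Dicer1 knockout cells, against 41.2 and 42.7 TPM in empty vector cells (1.04 ± 0.09 SE, limma adjusted p = 0.00438). Both passed the test with either Dicer1 knockout library left out.

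Sgpl1, the sphingosine phosphate lyase gene, rose by 0.82 ± 0.09 (limma adjusted p = 0.00568), a call lost without Dicer1 knockout replicate 1 (0.77). Stard13, a GTPase-activating protein gene, was the member that fell, at 5.48 and 8.16 TPM in Dicer1 knockout cells, against 19.4 and 17.6 TPM in empty vector cells (-1.34 ± 0.22 SE, limma adjusted p = 0.0118), and its call was also lost without replicate 1 (-1.09). In the fit of both knockouts, 2 of the 15 shared genes had a higher change in Drosha knockout cells and 6 a lower one, where 17.4% and 18.1% of all genes did.

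The miR-542 list held 5 genes, of which 3 were tested in the Drosha comparison and 2 rose, where 35.3% of all genes rose. Birc5, the apoptosis inhibitor survivin, is also 1 of the 6 markers of proliferating cells. It stood at 15.5, 16.8 and 16.8 TPM in Drosha knockout cells, against 8.92, 6.38 and 7.84 TPM in empty vector cells (1.00 ± 0.11 SE, limma adjusted p = 4.12e-04). Ilk, the integrin-linked kinase gene, rose by 0.24 ± 0.04 (limma adjusted p = 0.00246), a call lost with median-ratio scaling (0.09).

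In Dicer1 knockout cells 4 were tested, and 1 rose and 1 fell, where 21.5% of all genes rose and 9.60% fell. Ptgs2, the inducible cyclooxygenase gene, stood at 558 and 520 TPM in Dicer1 knockout cells, against 73.9 and 90.7 TPM in empty vector cells (2.70 ± 0.12 SE, limma adjusted p = 0.00171). In Drosha knockout cells it was too low for the filter, at 0.971, 0.968 and 1.12 TPM, against 0.270, 0.279 and 0.420 TPM in empty vector cells. Birc5 fell to 11.4 and 14.5 TPM in Dicer1 knockout cells, against 72.8 and 31.7 TPM in empty vector cells (-1.83 ± 0.39 SE, limma adjusted p = 0.0225). That call was lost without Dicer1 knockout replicate 1 (-1.67) and without replicate 2 (-1.99).

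**Figure D4:**
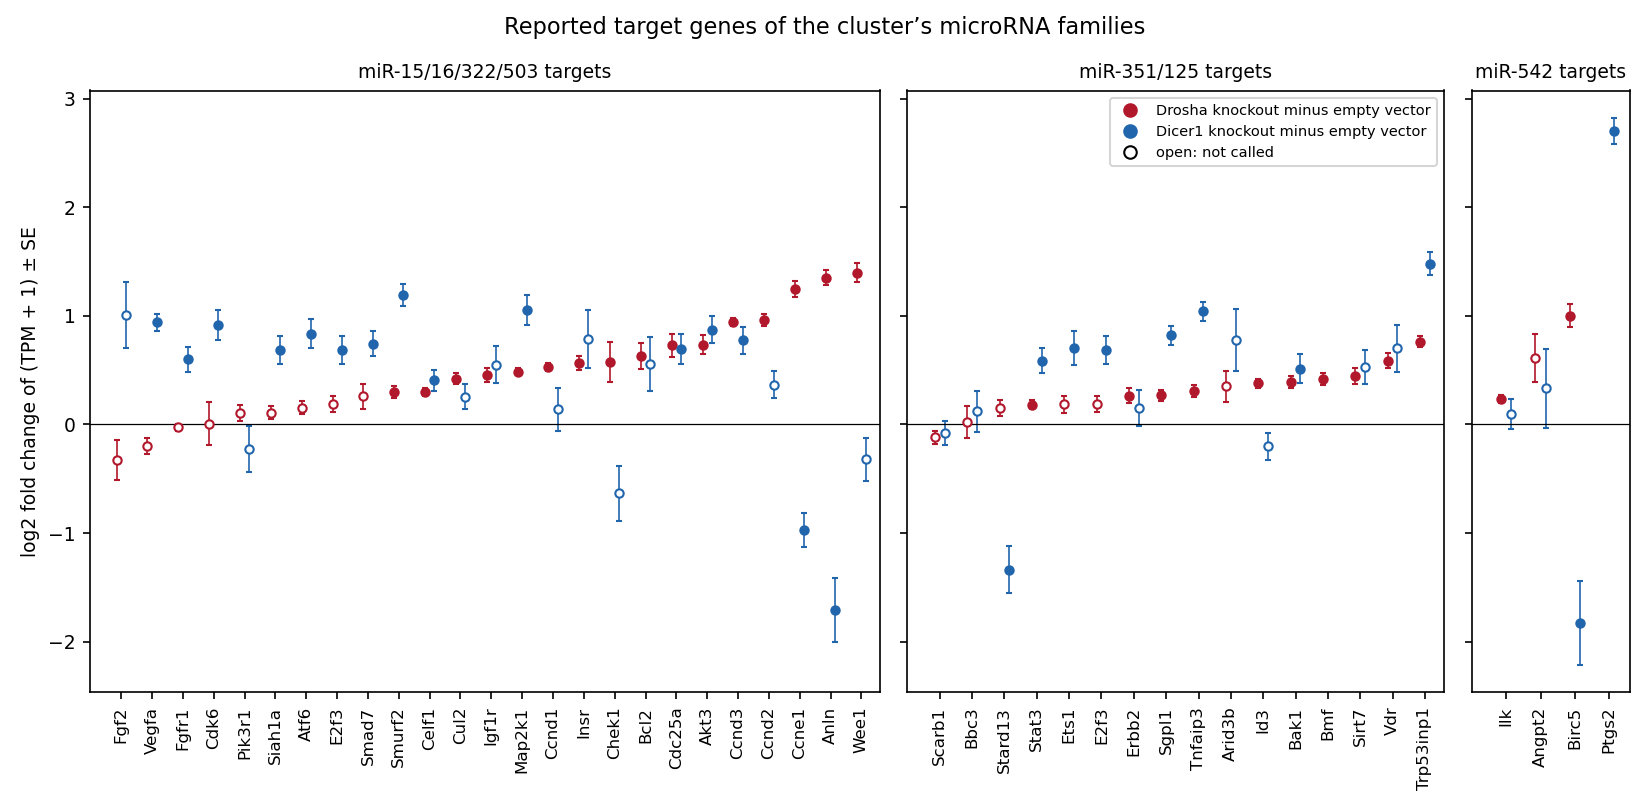
Log2 fold change of TPM + 1 with its SE for tested genes of the 3 target lists, each knockout minus its own empty vector, ordered by the change in Drosha knockout cells, with filled points for called genes. Wee1, Anln and Ccne1 lie at 1.25 to 1.40 in the Drosha comparison, whereas Anln and Ccne1 lie at -1.71 and -0.97 in the Dicer1 comparison.

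Beyond the lists, 8-base seed matches were counted in the longest 3′ UTR, which the annotation gave for 86.6% of genes in the Drosha comparison. A miR-322 match was present in 550 of 11027 genes, or 4.99%. Of those 550, 47.6% rose and 4.36% fell in Drosha knockout cells, with a median log2 change of 0.20, where 38.3% of all genes with a UTR rose, 7.61% fell and the median was 0.14. The miR-503 match (67 genes), the miR-351 match (643) and the miR-542 match (636) had shares risen of 38.8%, 38.4% and 40.9%, close to that of all genes with a UTR. Genes with any of the 4 matches had longer 3′ UTRs, with medians of 2772.5 (miR-322), 2770.0 (miR-503), 2504 (miR-351) and 2751.5 bases (miR-542) where that of all was 1351, and the part of UTR length was not tested.

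In the Dicer1 comparison 30.5% of the 560 genes with a miR-322 match rose, with a median of 0.29, where 22.5% of all genes with a UTR rose and the median was 0.16. The miR-503, miR-351 and miR-542 matches had shares risen of 31.2%, 26.1% and 26.9%. A match says only that the letters are present and does not separate miR-322 from the other microRNAs with its seed.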

How the data were processed

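RNA of 10 OP9 libraries was analysed as TPM. The authors deposited 1 table of TPM per knockout, computed by kallisto 0.48.0 according to the submitters' processing notes, a tool that divides estimated reads by effective transcript length. No source used here gives its index, annotation or build. The tables had 55357 rows each, and each library summed to 1e+06 TPM, with 11893 to 12917 genes at 1 TPM or more. In the Drosha table, 20024 rows without a symbol were named through their Ensembl ID. In the Dicer1 table, 22339 rows without a symbol, holding 4.25% to 6.22% of TPM, were left out.

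Genes with at least 1 TPM in 3 of 6 (Drosha) or 2 of 4 libraries (Dicer1) were tested on log2(TPM + 1) with limma 3.58.1 in R 4.3.3 with a mean trend, two-sided, Benjamini-Hochberg adjusted over all tested genes and called under 0.05. Fold changes on this scale understate changes of low genes. The difference between knockouts came from 1 fit of all libraries over 11146 shared genes. The procedure was tested on simulated data. The members, gene lists and tests were chosen with earlier results of these data known. The rule for naming genes took the members, the targeted genes, cluster rows and 5 coding genes on each side. It also took up to 4 called genes per target list with the largest changes. Mir22hg, Dleu2, Mir100hg, Mir17hg, Mir29a, Cdk6, Ccnd3, Cdc25a, E2f3, Ccnd1, Chek1, Fabp4, Adipoq and Cxcl12 were singled out after their values were seen. Some genes chosen for likeness to Mir322 are not reported here. Gene positions and 3′ UTRs came from GENCODE M21 (GRCm38) and microRNA sequences from RefSeq, which matched mature strands of 4 of 4 hairpin genes. Alternatives covered pseudocounts of 0.1 and 0.5, the filter, 3 rescalings, the trend, a replicate block and leaving out each library.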

Additional observations from a re-analysis of the deposited data

Results flagged for a closer look

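The genes below passed the limma test of the difference between the knockouts, as did 35.5% of all genes. Other genes named above also passed and are not listed here. The difference is the change in Drosha knockout cells minus that in Dicer1 knockout cells, each against its own empty vector. On the log2 scale it was 3.06 for Anln, 2.83 for Birc5, 2.22 for Ccne1, 1.72 for Wee1, 1.49 for Stard13, 1.29 for Gpc4 and 0.59 for Ccnd2. It was negative for Mospd1 (-0.97), Smurf2 (-0.89), Tnfaip3 (-0.73), Trp53inp1 (-0.72), Map2k1 (-0.57) and Sgpl1 (-0.55). Of the processing genes, it was -1.54 for Drosha, 1.38 for Dgcr8 and 1.19 for Dicer1. Knockout and batch cannot be told apart in these differences. The target genes among them were named for large changes in 1 or both knockouts, which enter the difference.

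For Mir503 and Mir351 the group means moved in opposite directions, and that difference was not tested. Mir503 was 1311 TPM higher in Drosha knockout cells, and its mean in Dicer1 knockout cells minus that in empty vector cells was -6.23 TPM. The same differences were 766 and -9.43 TPM for Mir351. The Dicer1 differences of both genes rest on empty vector replicate 1 alone, since replicate 2 was at 0.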

How the results depend on the processing

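The log2 changes of the 5 members in Drosha knockout cells stayed far above 0 under all 16 settings: 6.05 to 6.32 for Mir322, 5.41 to 6.09 for Mir503, 4.51 to 5.23 for Mir351, 3.54 to 5.52 for Mir542 (highest with a pseudocount of 0.1) and 2.45 to 2.65 for C430049B03Rik (lowest with median-ratio scaling). The Drosha count of 5447 called genes was 4551 to 4862 when 1 library was left out. The Dicer1 count of 3802 was 432 to 4769 when 1 library was left out, and 1847 with no filter on low TPM, which tests more genes. The count for the difference, 3960, was 3130 to 4931 when 1 library was left out. Rescaling changed the split of calls: 4502 of 5447 Drosha calls were higher, against 2299 of 4390 with median-ratio scaling and 2142 of 4353 with quantile normalization. Of the Dicer1 calls 2627 of 3802 were higher, against 1579 of 3159 and 1621 of 3103. With a replicate block the counts were 5188 (Drosha), 3045 (Dicer1) and 3433 (difference). In the Drosha comparison no pairing by replicate number was seen. Deviations of same-numbered libraries correlated at -0.0213, 0.0203 and -0.0068, and those of other-numbered libraries at -0.0232 to 0.0307. In the Dicer1 comparison, same-numbered libraries were at -0.0921 and other-numbered ones at 0.0921. With 2 libraries per group these values mirror each other, so they cannot show if the libraries were paired. Of 1196 further values, 1153 kept their direction and side of the threshold and 0 reversed. The cause of lost calls was not tested. The limits are unknown depth, 2 libraries per group in batch 1, and hairpin rows of under 100 bases.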
